A study of Mus musculus with 2 samples.

Results

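The nuclei described here are 500 barcodes of mouse salivary gland that carried transcripts of intercalated duct marker genes, out of 142799 barcodes in 2 single-nucleus libraries. They were chosen by measured values. A barcode had to hold at least 1000 UMIs (unique molecular identifiers, each standing for 1 captured RNA molecule), with under 27% of them from 8 very abundant saliva genes (Mucl2, Scgb1b27, Scgb2b27, Prol1, Smgc, Scgb2b26, Pip and Car6). Barcodes that met both limits are called eligible, and the control library had 8384 of them and the null library 13096. A member then had at least 1 UMI in at least 3 of the 7 genes Grip1, Tafa1, Gpc6, Gfra3, Kit, Nkd2 and Gstt1, which 295 and 320 eligible barcodes met. Of these, 59 and 56 held a UMI of the stromal genes Pdgfra or Bicc1 and were left out. This left 236 control and 264 null members.

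The study sampled whole salivary gland of mice aged 20 days, with no selection of a cell type, and prepared nuclei for the 10x Chromium 3' chemistry. The control library came from the genotype C56BL/6 Csf2+/- and the null library from C56BL/6 Csf2-/-, so both carried at least 1 mutant allele of Csf2, the gene of the cytokine GM-CSF, and no wild-type gland was among the libraries used. The labels name neither sex, nor how many animals were pooled, nor which gland of the salivary group was taken, nor how the allele was made. Each genotype had 1 library. There was therefore no test between genotypes, and every interval below is a 95% interval for counting error within a library.

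Intercalated ducts are the narrow first stretch of the ductal tree, which takes saliva from the acini and leads it to the striated ducts. In rodents they are known for the receptor tyrosine kinase KIT and have long been studied as a possible source of new acinar and duct cells. GM-CSF acts on myeloid cells, macrophages among them, through a receptor made of the subunits Csf2ra and Csf2rb.

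Control members held a median of 2788 UMIs and null members of 2049.5, against 2833 and 2009.5 in the other eligible barcodes. Across both libraries together, 1367 barcode sequences occurred in each file, while 0 member barcodes were members in both. Csf2 had 5 UMIs over all control barcodes and 0 over all null barcodes, and 0 in members of either library, where the 3 counts that a count of 0 allows correspond to 3.85 and 4.54 CPM, the usual depth-scaled unit, taken over the UMIs of the group. The doublet caller Scrublet marked 7 control members and 0 null members, but in the null library it marked 9 of 13096 eligible barcodes and was taken as not having worked there, so doublets were kept. Of the members, 333 passed with exactly 3 marker genes, 141 with 4, 25 with 5 and 1 with 6. Just outside that limit lay 442 control and 411 null eligible barcodes with 2 marker genes and no stromal UMI, so the limit runs through a densely filled range. At the limit on saliva genes, 8 members lay between 25 and 27% and 3 barcodes between 27 and 29%, all from the null library. At the lower UMI limit, 7 null members lay just inside with 1011 to 1089 UMIs, and 1 null barcode lay just outside with 925.

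The 7 marker genes did not carry equal parts of the choice. Gpc6, a glypican (a heparan sulfate proteoglycan anchored to the cell surface), had a UMI in 477 of the 500 members, Grip1, a scaffold protein with PDZ domains, in 366, and Kit in 355. Nkd2, an intracellular inhibitor of WNT signalling, had one in 340. Detection was far rarer for Tafa1, a small secreted chemokine-like protein, with 89 members, for Gfra3, the coreceptor for the neurotrophic ligand artemin, with 47, and for Gstt1, a glutathione S-transferase, with 20. Fibroblast-like nuclei, at a median of 2471 UMIs against 2377 in members, had a Kit UMI in 1.80% of nuclei against 71.0%, and a Grip1 UMI in 4.66% against 73.2%. Gpc6 and Gstt1 are not restricted to duct epithelium in this gland. Gpc6 was detected in 90.8% of fibroblast-like nuclei, and Gstt1 in 9.97% of them against 4.0% of members.

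Since the rule picked barcodes on these genes, their levels describe the choice and support nothing. Tafa1 reached 190 CPM in control and 321 CPM in null members, against 1.75 and 2.29 CPM in the other eligible barcodes. Kit reached 456 and 524 CPM against 27.2 and 23.8, Nkd2 402 and 466 CPM against 15.6 and 14.1, and Grip1 716 and 610 CPM against 48.2 and 39.8. Gfra3 reached 43.7 and 48.4 CPM against 2.70 and 2.74, on 34 and 32 UMIs. Gpc6 was at 3970 CPM in control and 2820 CPM in null members, against 614 and 475 CPM. Gstt1 was the exception among the 7, with 9 and 11 UMIs, 11.6 and 16.7 CPM in members, and 41.2 and 40.5 CPM in fibroblast-like nuclei. Kit alone does not set intercalated duct nuclei apart from ionocyte-like nuclei, in which it stood at 586 and 537 CPM.

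Clustering of all eligible barcodes used neither the rule nor its marker, saliva and stromal genes, but other genes that varied between barcodes. It gave 29 clusters, and 410 of the 500 members lay in 2 of them. They are called here by their leading genes, since both held the rule's markers. The Slc9a3 cluster, led by Slc9a3, Slc13a2, Slc34a2, Wnt5b and Dclk1, held 659 nuclei, of which 263 were members. The Tafa1 cluster, led by Tafa1, Sftpd, Ltf, Clic6 and Nkd2, held 239 nuclei, of which 147 were members. The rule thus took 39.9% of the first and 61.5% of the second cluster. Of the rest, 460 nuclei had UMIs in fewer than 3 marker genes and 28 a stromal UMI. All these were shallower, with a median of 1852.5 UMIs against 2230 in the members of these clusters. At a coarser clustering with 21 clusters all 410 fell into 1 cluster, and at a finer one with 37 clusters the groups stayed apart with 263 and 146 members.

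The other 90 members lay in clusters of other kinds, and these go against the label. They had a median of 3352 UMIs. In the control library 20 of them lay in myoepithelial and basal-like clusters, 13 in the ionocyte-like cluster, 7 in cycling clusters and 7 in the Schwann-like cluster. In the null library the numbers were 5, 4, 4 and 1, while 5 lay in luminal duct-like and 5 in macrophage-like clusters. Members outside the main clusters made up 24.2% (18.8 to 30.1%) of control members and 12.5% (8.76 to 17.1%) of null members, a log2 ratio of -0.95 (-1.61 to -0.31). The groups of members compared below therefore differ in make-up, and results are given also for the 2 main clusters.

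**Figure D1:**
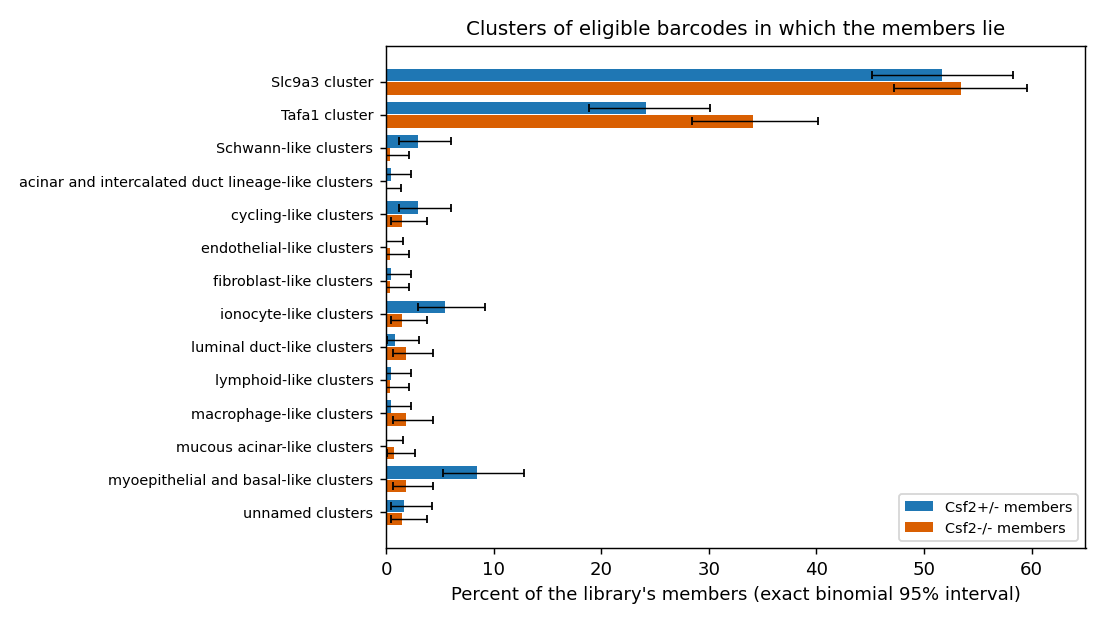
Percent of the members of each library (horizontal axis) by the cluster that held them (vertical axis), with exact binomial 95% intervals for counting error. The Slc9a3 cluster held 51.7% of control and 53.4% of null members, the Tafa1 cluster 24.2 and 34.1%, and more control than null members lay outside both.

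Against the lists of cell type markers, members carried epithelial genes, but the list of their own lineage was not high. Of 14 genes of the acinar and intercalated duct lineage all 14 had at least 50 UMIs, 1 was at least 2-fold higher than in the other eligible barcodes in both libraries and the median log2 ratio was -0.35. Of all genes measured, 4.75% were at least 2-fold higher and 1.42% at least 2-fold lower in this contrast. The ionocyte list had a median of 1.07 over 5 measured genes and the cycling list of 0.81 over 3. Of 12 pan-epithelial genes 9 had at least 50 UMIs in members, with a median log2 ratio of members over other eligible barcodes of 0.67, where the median of all genes measured was 0.06. The keratin genes Krt7 (116 control and 107 null UMIs) and Krt8 (104 and 112) were more than 2-fold higher than in the other eligible barcodes in both libraries. Ehf, an ETS-family transcription factor of glandular epithelia, stood at 1061 and 947 CPM against 472 and 365. Of 11 seromucous acinar genes 9 were measured and 0 were 2-fold higher in both libraries, with a median of -0.54. Lpo, the gene of lactoperoxidase, stood at 92.5 CPM in control and 87.8 CPM in null members, close to the 87.5 and 79.8 CPM of fibroblast-like nuclei, and the acinar transcription factor Bhlha15 at 154 and 206 CPM against 141 and 139. Smgc, a secretory protein of the developing submandibular gland and one of the 8 genes of the rule, had 6956 and 8475 CPM in members and 6920 and 8252 CPM in macrophage-like nuclei. The levels of Lpo and Smgc in members were therefore close to those in fibroblast-like or macrophage-like nuclei, which should lack them. The reason was not tested. Of 14 luminal duct genes 8 were measured, with Slc9a3 at least 4-fold higher, Egf at least 2-fold lower and a median of -0.17. Egf, made by granular duct cells, stood at 91.2 and 86.3 CPM against 218 and 153 CPM in luminal duct-like nuclei. Mast cells also carry KIT. Of 8 mast cell genes 7 had 0 UMIs in members, and the whole list had 0 UMIs in control and 1 in null members.

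Outside the genes of the rule, Clic6, Slc9a3, Dclk1 and Wnt5b stood highest in members relative to the other eligible barcodes. Among 5218 genes with at least 50 member UMIs, 61 (1.17%) were at least 4-fold higher than in the other eligible barcodes in both libraries, and among 5115 genes that could be judged on the low side, 40 (0.782%) were at least 4-fold lower. The rule used this contrast, so these counts are a description. Slc9a3, the apical sodium-proton exchanger of absorptive epithelia, had 168 UMIs in control and 104 in null members, or 216 and 157 CPM, against 7.82 and 8.26 CPM in the other eligible barcodes. It was detected in 29% (25.1 to 33.2%) of members and in 0.736% (0.437 to 1.16%) of fibroblast-like nuclei. Its 7 and 8 UMIs in luminal duct-like nuclei, 2.67 and 3.57 CPM, were near the 2.10 and 5.36 CPM of fibroblast-like nuclei. Slc9a3 had been listed as a luminal duct gene, and here it was high in members and not in luminal duct-like nuclei.

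Wnt5b, a ligand of the non-canonical WNT branch, reached 464 and 419 CPM in members against 24.1 and 27.8 CPM, and was detected in 56.6% of members and 4.66% of fibroblast-like nuclei. Dclk1, a microtubule-associated kinase, reached 1111 and 781 CPM against 68.3 and 39.7. Both were high in either library and in either main cluster. Clic6, of the chloride intracellular channel family, had 86.1 and 95.4 CPM in members and 0 UMIs in ionocyte-like nuclei. Itgb8, an integrin subunit that takes part in the activation of TGF-beta, had 213 CPM in each library against 24.5 and 22.6. Il34, the second ligand of the macrophage receptor CSF1R, reached 193 CPM in control and 117 CPM in null members, against 21.1 and 20.8 CPM in the other eligible barcodes. Il34 transcripts were detected in 32.6% of members, in 8.75% of fibroblast-like nuclei and in 0.983% of macrophage-like nuclei, at median depths of 2377, 2471 and 2029 UMIs.

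The remaining genes of the 20 highest were Pitpnm3 (a phosphatidylinositol transfer protein), the glycosyltransferase genes Fut9 and Mgat3, Ano4 of the anoctamin family, the aldehyde oxidase gene Aox3, the transcription factor gene Glis3, the carbonic anhydrase gene Car2, Rad51b, Mboat1, Anxa1 and Atp10b. Their log2 ratios over the other eligible barcodes lay between 2.62 for Atp10b among control nuclei and 4.35 for Pitpnm3 among null nuclei. Rad51b was not particular to duct nuclei, with 532 and 562 CPM in macrophage-like nuclei. Several others were not particular to members. Over ionocyte-like nuclei the log2 ratios were -0.03 and -0.65 for Anxa1 and 0.65 and 0.41 for Fut9. They were 0.86 and 0.77 for Ano4 over luminal duct-like nuclei and 0.48 and 0.34 for Atp10b over mucous acinar-like nuclei. Glis3 was detected in 48.2% of fibroblast-like nuclei against 66.8% of members. On the low side, after Bicc1 and Pdgfra, which the rule set to 0, came Fgf10, a growth factor of the mesenchyme, with 55.2 and 19.7 CPM against 430 and 250, followed by Pappa, Adamts12, Ebf1, Epha3, Trerf1, Ebf3 and Col15a1. Most of these are known from stromal cells.

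**Figure D2:**
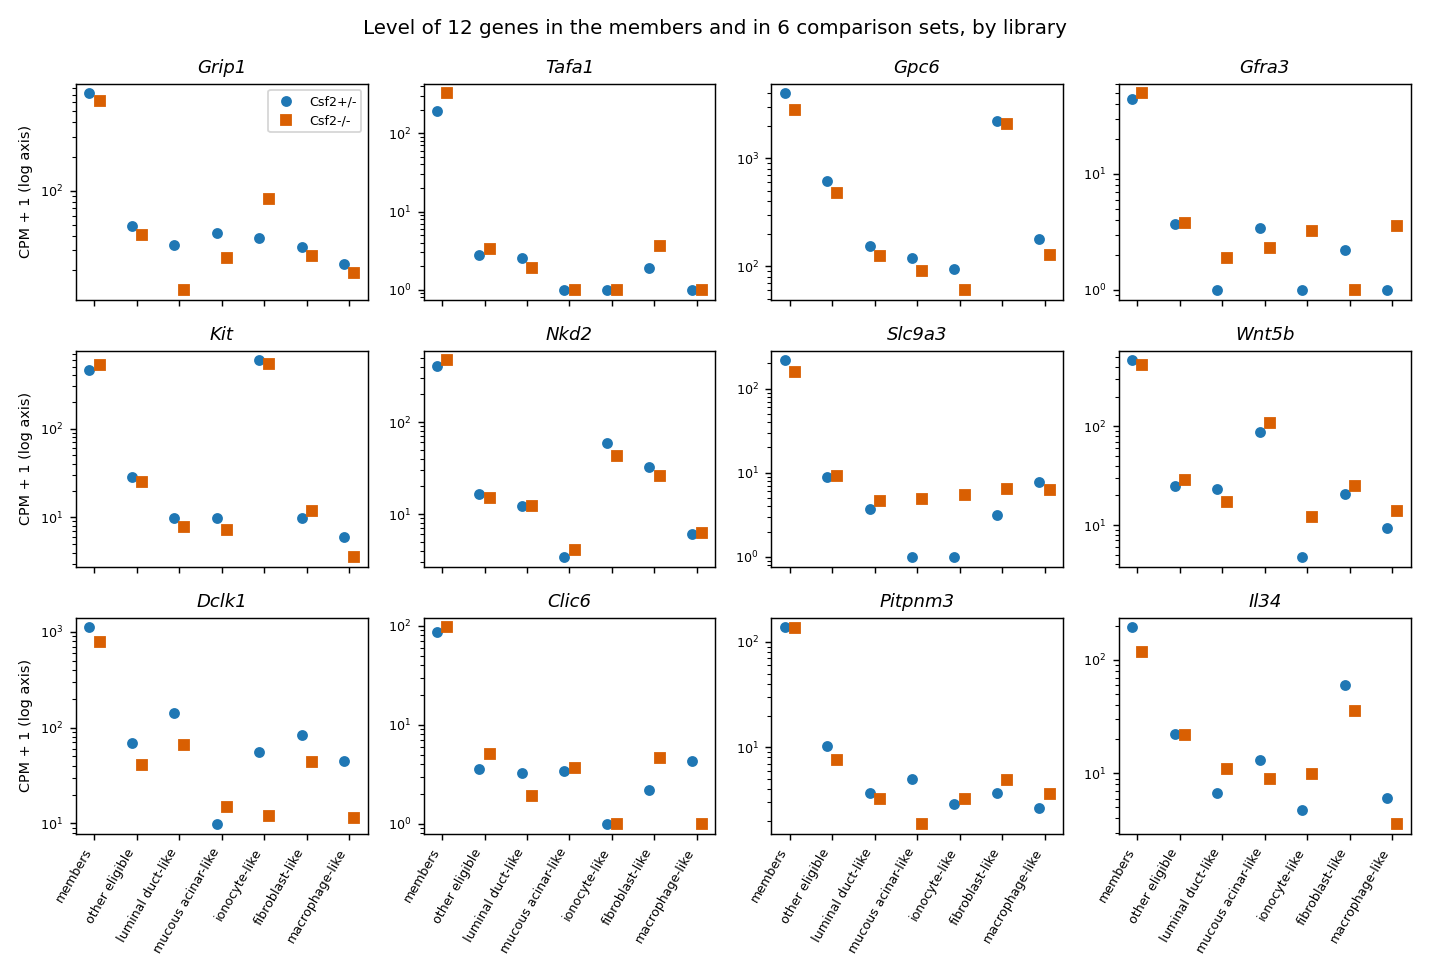
CPM plus 1 on a log axis for 12 genes in members, other eligible barcodes and 5 classes of nuclei, with circles for the Csf2+/- and squares for the Csf2-/- library. Slc9a3 stood at 216 and 157 CPM in members and 2.67 and 3.57 CPM in luminal duct-like nuclei, while Kit was as high in ionocyte-like nuclei as in members.

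Members were also set beside 3 epithelial classes. How alike each class was to members was not measured, and the remaining epithelial clusters were not compared in this way. Tafa1 and Slc9a3 stood among the 8 highest genes over luminal duct-like, over mucous acinar-like and over ionocyte-like nuclei. Tafa1 is a gene of the rule, so its rank was set by the choice of members. Members seldom held both genes, with a Tafa1 UMI in 89, a Slc9a3 UMI in 145 and both in 8 of the 500. Over the 1764 luminal duct-like nuclei, Glis3 (log2 ratio 5.27 for control and 5.25 for null nuclei), Pitpnm3 (5.67 and 5.91) and Nebl, a gene of the nebulin family (6.47 and 5.16), were also among the highest. Lower in members than in luminal duct-like nuclei were Nos1, the neuronal nitric oxide synthase gene (2 and 1 UMIs against 359 and 248), the potassium channel genes Kcnt1 (4 and 2 against 326 and 306) and Kcnj16 (8 and 3 against 401 and 250), and Pdgfd (48 and 18 against 2812 and 1762). These potassium channel genes were thus nearly undetected in members.

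Over the 1248 mucous acinar-like nuclei, Nkd2 (log2 ratio 7.37 and 7.25), Dclk1 (6.96 and 5.80), the retinoic acid receptor gene Rarb (5.75 and 6.46) and Ltbp1, which stores latent TGF-beta in the matrix (5.53 and 6.07), were among the highest, and Tafa1 had 0 UMIs in the mucous class. Lower were Slc8a3, a sodium-calcium exchanger gene (5 and 3 UMIs against 348 and 820), Hpse2 (29 and 41 against 1818 and 3188) and Mgat5 (31 and 22 against 1199 and 1617). Over the 372 ionocyte-like nuclei the highest were Gpc6 (5.4 and 5.56), Wnt5b (6.36 and 5.25), Aox3 (4.77 and 5.15) and Sox6 (5.15 and 4.42). The ionocyte master regulator Foxi1 had 4 and 2 UMIs in members against 90 and 66 in ionocyte-like nuclei. Kit was high in both kinds of nuclei. Kit, Gpc6, Nkd2 and Tafa1 are genes of the rule, so their levels in members were set by the choice.

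The 2 main clusters showed intercalated duct nuclei of differing profile. The contrast was taken over all nuclei of each cluster, members or not. It is a description, because the clusters were built from gene levels in the same nuclei, though without Tafa1 and the other genes of the rule. Of 6199 genes with at least 50 UMIs in these nuclei, 10 (0.161%) were at least 4-fold higher in the Slc9a3 cluster in both libraries and 22 (0.355%) at least 4-fold higher in the Tafa1 cluster. Slc9a3 stood at 377 CPM in control and 314 CPM in null nuclei of the Slc9a3 cluster, against 32.2 and 35 CPM in the Tafa1 cluster. Tafa1 stood at 648 and 640 CPM in the Tafa1 cluster against 39.7 and 30.8. The difference was of the same size in both libraries.

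Next to Slc9a3, the named genes higher in its cluster included Chp1, Car2 and Car8. Chp1, which encodes a calcineurin-like cofactor of sodium-proton exchangers, had 125 control and 102 null UMIs in the Slc9a3 cluster and 2 and 7 in the Tafa1 cluster. The carbonic anhydrase gene Car2 had 137 and 84 UMIs against 8 and 8, and Car8, whose product belongs to the carbonic anhydrase family but lacks the enzyme activity, had 143 and 111 against 4 and 4. Because the Slc9a3 cluster was larger, the ratios of CPM are the fairer comparison, and they were 2.30 and 2.14 on the log2 scale for Car2 and 3.36 and 3.55 for Car8. Chp1 and Car8 were also detected in 19.4% and 17.6% of luminal duct-like nuclei, against 31.2% of Slc9a3-cluster members for each gene. Gfra3 was at 25.1 and 49.6 CPM in the Slc9a3 cluster, against 4.6 CPM in the control library and 0 UMIs in the null library of the Tafa1 cluster.

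The Tafa1 cluster had higher levels of Cadm1, Glis3, Aspa, Prkd1 and Nid2. Cadm1, a cell adhesion molecule of the immunoglobulin family, stood at 680 and 586 CPM against 58.2 and 67.1. Glis3 stood at 4682 and 2950 CPM against 682 and 498. Aspa, which encodes aspartoacylase, had 34 and 71 UMIs against 3 and 19, and the protein kinase gene Prkd1 had 81 and 86 against 23 and 27. Nid2, which encodes a nidogen of the basement membrane, had 46 and 53 against 24 and 11. Sftpd and Ltf, named here after their values had been seen, encode the antimicrobial proteins surfactant protein D and lactoferrin. Sftpd stood at 82.7 and 137 CPM against 1.32 and 2.68, and Ltf at 120 and 51.0 CPM against 0 UMIs and 2.68 CPM. Sftpd was detected in 22.4% of Tafa1-cluster members, 0.380% of Slc9a3-cluster members and 0.368% of fibroblast-like nuclei. Among the genes that did not separate the clusters were Kit, at 390 and 418 CPM against 395 and 427, Wnt5b, at 553 and 410 against 579 and 475, and Il34, at 249 and 186 against 234 and 153.

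**Figure D3:**
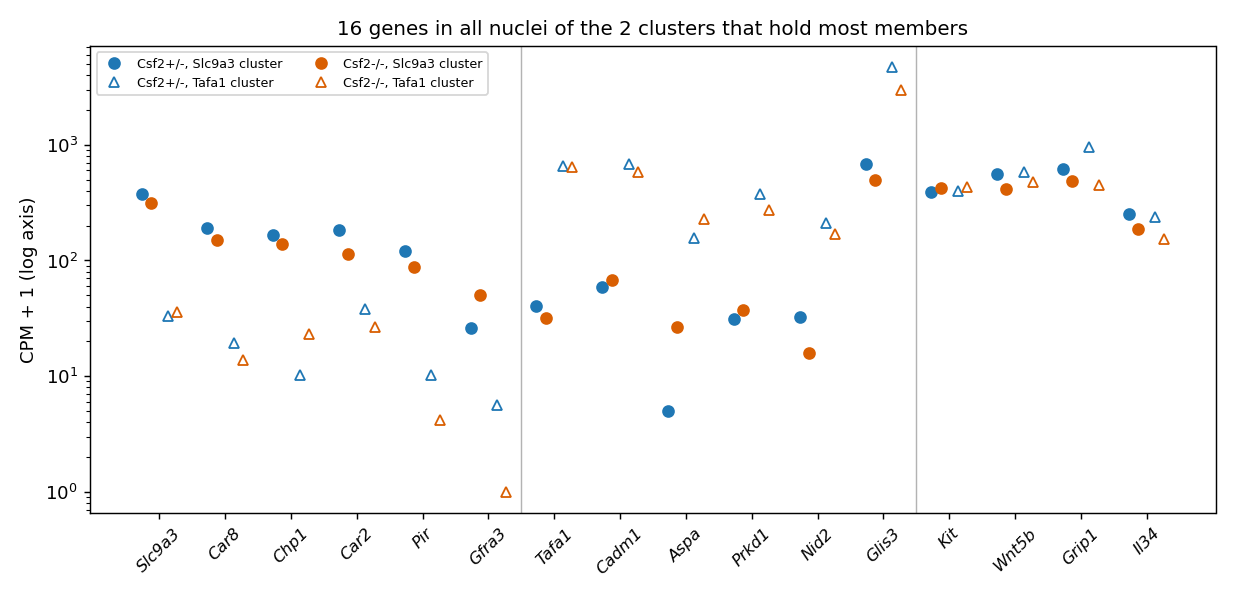
CPM plus 1 on a log axis for 16 genes over all nuclei of the Slc9a3 cluster (filled circles) and of the Tafa1 cluster (open triangles), in each library. Slc9a3 and Car8 stand higher in the first cluster, Tafa1, Cadm1 and Aspa in the second, and the symbols for Kit, Wnt5b and Il34 lie close together.

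Detection in single nuclei is given for pairs of genes that were picked after the clusters had been seen, so these counts describe the clusters and support nothing. Tafa1 and Gfra3, as genes of the rule, were not used to build the clusters. Of the 500 members, 145 had a Slc9a3 UMI and 89 a Tafa1 UMI, and 8 had both, where the product of the shares is 25.8. Slc9a3 and Sftpd met in 2 members, where the product is 10.4, and Slc9a3 and Car2 in 42, where it is 27. Tafa1 and Cadm1 met in 52, where the product is 27.8. Of the rule's own markers, Gfra3 and Tafa1 met in 1 member where the product is 8.37, and the requirement of 3 markers of 7 bears on every pair with Gfra3 or Tafa1. Members differ in depth, which touches every such count.

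The stretches of 250 bases before the start sites of the genes that lead the 2 clusters are shown because the clusters are called by these genes. They are RefSeq sequences of the build GRCm38.p6, whose coordinates are not those of the build the authors used. Slc9a3 lies at chr13:74121163-74121412 and Tafa1 at chr6:96112904-96113153, both on the plus strand, and capitals mark the ETS-type letters AGGAAG.
Slc9a3: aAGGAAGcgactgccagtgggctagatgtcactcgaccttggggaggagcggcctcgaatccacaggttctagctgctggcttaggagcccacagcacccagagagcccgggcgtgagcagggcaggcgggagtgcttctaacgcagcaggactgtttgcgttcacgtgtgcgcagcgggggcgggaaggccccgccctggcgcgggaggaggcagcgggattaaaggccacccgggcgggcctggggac
Tafa1: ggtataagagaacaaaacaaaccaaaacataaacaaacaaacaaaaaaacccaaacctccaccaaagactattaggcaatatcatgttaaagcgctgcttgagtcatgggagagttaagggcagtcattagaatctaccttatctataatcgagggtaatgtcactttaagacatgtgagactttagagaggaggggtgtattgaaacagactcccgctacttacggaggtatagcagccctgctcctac
The motifs were searched on both strands in the 250 bases before each start in the RefSeq table, here called a window. They were AGGAAG for the ETS family, to which Ehf and Elf5 belong, and TGTGGT for the RUNX family, to which Runx1 belongs. AGGAAG was found once in the Slc9a3 stretch and not in the Tafa1 stretch, and TGTGGT in neither. Of 20 genes highest in members, 15 matched the table, with 22 windows. AGGAAG stood in 9 of these, belonging to Slc9a3, Kit, Wnt5b, Grip1, Ano4, Aox3 and Glis3, and TGTGGT in 1, of Dclk1. Over all 32851 windows the shares were 29.5% and 14%. These matches describe letters in a window and no binding.

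Pathway lists place these genes in their families. Of 42 genes of the WNT pathway 16 had at least 50 member UMIs, and 2 of them, the ligand gene Wnt5b and the inhibitor gene Nkd2, were at least 4-fold higher than in the other eligible barcodes, where 1.17% of all genes were. Nkd2 is a gene of the rule, so its level was set by the choice of members. The median log2 ratio of the other 15 was 0.39, beside 0.06 for all genes. Axin2, a transcriptional target and inhibitor of the canonical branch, had 29 and 17 UMIs, too few for the list's minimum. Of 29 genes of glypicans and heparan sulfate 14 were measured, of which Gpc6 is a gene of the rule. Of the other 13, with a median of 0.055, 1 was at least 4-fold higher, the sulfotransferase gene Hs3st3b1 (81 and 65 UMIs, 104 and 98.4 CPM against 23.0 and 19.0). A second glypican gene, Gpc4, stood at 406 and 292 CPM against 94.3 and 80.1.

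Of 44 transcription factor genes of the gland lineage 31 were measured and 4 were at least 2-fold higher in both libraries, where 4.75% of all genes were. Runx1 stood at 667 and 820 CPM in members against 166 and 133 CPM. It was higher still in macrophage-like nuclei, at 1332 and 955 CPM. Foxc1 stood at 263 and 244 CPM against 78.9 and 68.1, Ehf as given above, and Rarb had 102 UMIs in each library. Sox9, a factor of progenitor cells of the gland, stood at 154 and 268 CPM against 81.2 and 122, and Elf5 at 211 and 144 against 119 and 106. The list's median was 0.38.

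In the Notch list 8 of 20 genes were measured, and Maml2, a coactivator of Notch transcription, with 1096 and 1050 CPM against 338 and 310, Notch2 and Notch3 were at least 2-fold higher, 3 of 8 beside 4.75% of all genes, with a median of 0.62. In the BMP and TGF-beta list 17 of 37 were measured, and Ltbp1, at 412 and 322 CPM against 70.0 and 51.6, was at least 4-fold higher. Laminins, integrins and basement membrane had 16 of 35 measured, with Itgb8 at least 4-fold higher and Lama2, the laminin chain of the stroma, at least 4-fold lower. Agrn stood at 200 and 170 CPM against 82.4 and 75.9. In the tight junction list 21 of 28 were measured, and the junction genes Cgn and Ocln (65.5 and 56 CPM against 29.6 and 22.7 for the latter) were at least 2-fold higher, 2 of 21 beside 4.75% of all genes, and Magi2 at least 2-fold lower.

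In the list of ion and water transport 22 of 37 genes were measured and 2, Slc9a3 and Car2, were at least 2-fold higher in both libraries, beside 4.75% of all genes. The secretory cotransporter gene Slc12a2 stood at 1196 and 784 CPM in members against 3528 and 3104 CPM in ionocyte-like nuclei, and Aqp5, the water channel of acini, at 84.8 and 112 CPM against 192 and 204 CPM in mucous acinar-like nuclei. Among 26 genes of ligands for macrophages and innate lymphoid cells 9 were measured, and 3 were at least 2-fold higher, beside 4.75% of all genes. They were Il34, the chemokine gene Cxcl17 (54.0 and 39.4 CPM against 13.5 and 13) and Cx3cl1, whose product binds the macrophage receptor CX3CR1 (32.1 and 48.4 against 9.29 and 8.61). The median of that list was 0.71. In the list of GM-CSF and its receptor 4 of 11 genes were measured and none was 2-fold higher or lower than in the other eligible barcodes.

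Between genotypes, members made up 2.81% (2.47 to 3.19%) of eligible barcodes in the control library, 236 of 8384, and 2.02% (1.78 to 2.27%) in the null library, 264 of 13096. The log2 ratio of null over control was -0.48 (-0.74 to -0.22). This difference changed in size with the denominator, with depth and with the limit on saliva genes, and in sign under 2 settings. Over the eligible barcodes of clusters with at least 3 markers of an epithelial list the shares were 8.31% and 4.04%. The log2 ratio was -1.04 (-1.31 to -0.77). This set held a cluster of 204 control and 2452 null barcodes, but not the unnamed clusters of 1633 and 3419 and of 1856 and 438. Without these clusters, chosen after seeing the data, members were 5.03% and 3.89% of eligible barcodes, a ratio of -0.37 (-0.63 to -0.11). All nuclei of both main clusters were then 7.84% and 7.81%, a ratio of -0.007 (-0.20 to 0.19). Over all barcodes of the files the shares were 0.345% and 0.355%, a log2 ratio of 0.043, and with a limit of 35% on the saliva genes the ratio was 0.16. With every eligible barcode thinned to 1000 UMIs it was -0.074. Taken without the marker rule, all nuclei of both main clusters were 4.39% (3.96 to 4.85%) and 4.05% (3.72 to 4.40%) of eligible barcodes, a log2 ratio of -0.12 (-0.31 to 0.08). The Slc9a3 cluster alone made up 3.39% and 2.86%, a ratio of -0.24 (-0.47 to -0.01), and the Tafa1 cluster 1.0% and 1.18%, a ratio of 0.24 (-0.15 to 0.64). Of the nuclei of both clusters, those of the Tafa1 cluster were 22.8% (18.6 to 27.5%) in control gland and 29.2% (25.4 to 33.3%) in null gland. With 1 library a genotype, a difference in the gland and a difference in how nuclei were recovered cannot be told apart.

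**Figure D4:**
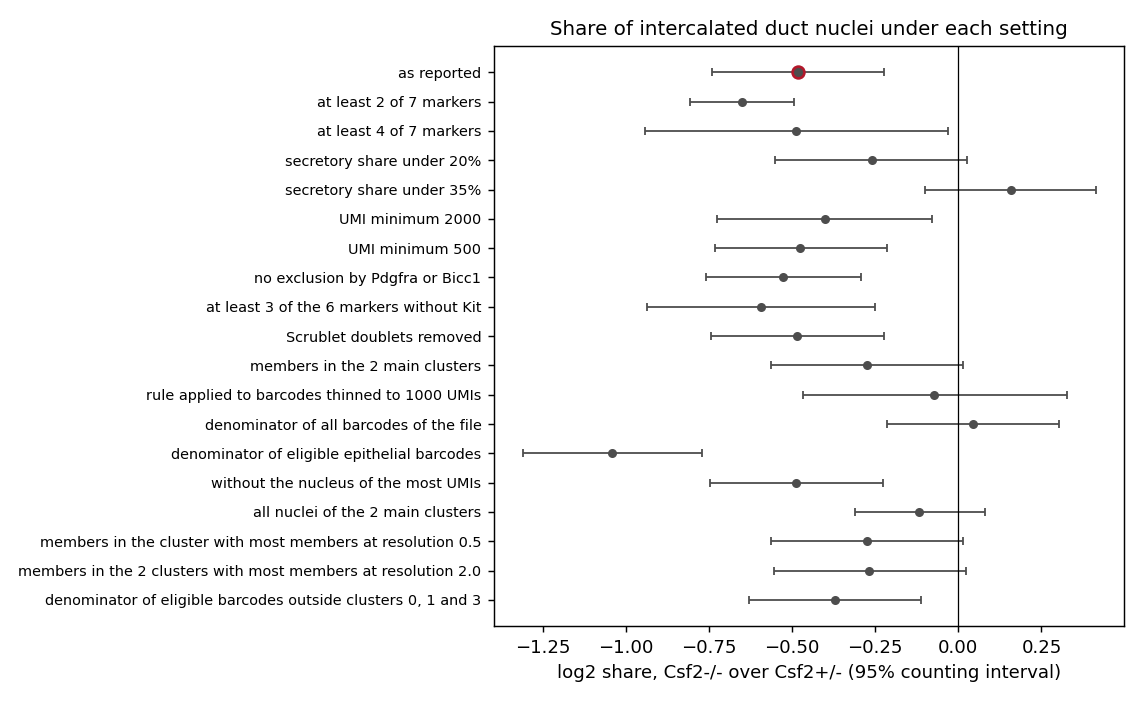
Log2 ratio of the share in the null over the control library (horizontal axis) under 19 settings (vertical axis), with 95% counting intervals. The value as reported is -0.48, and the settings run from -1.04 to 0.16.

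For gene levels, the UMIs of the members were summed in each library, and 5218 genes had at least 50 UMIs over both. In null members 48 of them (0.92%) were at least 2-fold higher and 124 (2.38%) at least 2-fold lower than in control members. The median log2 ratio over all genes was -0.07, and with the ratios centred on that median the counts were 59 and 98. In all nuclei of both main clusters, which leave out the members from other clusters, 46 of 6199 genes (0.742%) were at least 2-fold higher and 41 (0.661%) at least 2-fold lower. With minimum counts of 200 UMIs the numbers in members were 6 and 11 of 1432 genes.

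The highest ratios belonged to saliva proteins. Dcpp3, which encodes a demilune cell and parotid protein, had 856 UMIs in control and 3670 in null members, a log2 ratio of 2.34 (2.23 to 2.45). Dcpp1 had 437 and 1704 UMIs (2.20) and Dcpp2 694 and 2566 (2.12). The Dcpp genes are near-identical copies, so how reads were split among them is uncertain. The difference was of similar size in other kinds of nuclei. Dcpp3 stood at 1100 and 5554 CPM in members, 1016 and 5571 CPM in fibroblast-like nuclei, 1178 and 6311 CPM in macrophage-like nuclei, and 3444 and 16930 CPM in the barcodes under 1000 UMIs. Muc19 was at 1141 and 2204 CPM in members and at 849 and 1546 CPM in fibroblast-like nuclei, and Wfdc12, a whey acidic protein-type gene, at 407 and 755 CPM and at 386 and 709 CPM. The levels of Dcpp3 and Wfdc12 in members were thus near those of fibroblast-like nuclei, which do not make saliva, while Muc19 was higher in members. Next, the expected free RNA, with the profile of the barcodes under 1000 UMIs, was subtracted. The Dcpp genes and Wfdc12 were then left with no level that could be compared, while the ratio of Muc19 was 1.92 instead of 0.95. The part of free RNA in these differences was not tested. The list of saliva proteins outside the rule had 8 of 23 genes measured, 3 of them at least 2-fold higher in null members, and a median of 0.92.

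Among the other genes higher in null members, Cd27, a receptor of the TNF receptor family, had 17 and 51 UMIs, a log2 ratio of 1.82 (1.01 to 2.71), in 14 and 34 nuclei. It too was higher in null fibroblast-like nuclei, at 16.2 and 38.7 CPM. Cped1 had 51 and 111 UMIs (1.36) and Kif26b, a kinesin-family gene, 55 and 108 (1.21). Kif26b stood at 52.9 and 49.6 CPM in the Slc9a3 cluster and 221 and 401 CPM in the Tafa1 cluster, so the difference was seen in the Tafa1 cluster, and a difference between the clusters was not tested. Dact2, an antagonist of WNT and TGF-beta signalling, had 17 and 41 UMIs (1.51). Dennd2d had 80 and 144 UMIs, of which 32 came from 1 nucleus, and its ratio of 1.08 was 0.82 without the member nucleus of the most UMIs. That nucleus, with 43001 UMIs, held 6.51% of all null member UMIs.

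Most genes that were lowest in null members had their UMIs in members outside the main clusters. Stap1, a signalling adaptor found in ionocytes, had 86 UMIs in control and 7 in null members, a log2 ratio of -3.38 (-4.74 to -2.28). Of these, 84 and 5 came from members outside the 2 main clusters, and 2 and 2 from members within them. The potassium channel gene Kcnj3 had 84 and 7 UMIs, of which 78 and 7 lay outside, Rcan2 76 and 7, of which 76 and 5 lay outside, and Rgs6 100 and 13, of which 93 and 4 lay outside. Csmd1 had 240 and 46 UMIs, with 236 and 39 outside. Tmem117 had 271 and 52 UMIs, with 246 and 43 outside, and it was lower also in members within the main clusters, with 25 and 9 UMIs and a log2 ratio of -1.41. Without the null nucleus of the most UMIs the ratio of Csmd1 moved from -2.15 to -3.11.

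The marker lists of the other types among the members did not all have the same direction. The summed level of 13 ionocyte genes was 4471 CPM for control and 4079 CPM for null members, while in members within the main clusters it was 3757 and 4075.5 CPM. For 12 myoepithelial and basal genes the sums were 256 and 93.8 CPM in all members, 47.4 and 61.6 CPM within the main clusters and 693 and 197 CPM outside. For 10 Schwann cell genes they were 534 and 280 CPM, 199 and 207 CPM, and 1239 and 514 CPM. For 10 macrophage genes the sums were 137 and 204 CPM in all members, 118 and 69.6 CPM within the main clusters and 179 and 634 CPM outside. For 9 endothelial genes they were 16.7 and 72.6, 19 and 21.9, and 11.9 and 235 CPM, and for 10 mucous acinar genes 1494 and 2624, 1350 and 2109, and 1796 and 4266.5 CPM. The ionocyte, myoepithelial and Schwann sums were thus lower, and the macrophage, endothelial and mucous acinar sums higher, in null than in control members, and their part in the differences between genotypes was not tested. The values outside the main clusters rested on 57 control and 33 null nuclei, with 251048 and 157739 UMIs. The largest of these null nuclei held 43001 and 14962 UMIs. The endothelial sums were only 13 and 48 UMIs in all members, with 3 and 37 outside. Over both libraries 3 of the ionocyte, 2 of the myoepithelial and basal and 0 of the Schwann cell genes had 0 UMIs in members. Foxi1 had 4 and 2 UMIs in members and Ascl3, the other defining ionocyte factor, 10 and 2. Of 3972 genes measured in members of the main clusters, 20 were at least 2-fold higher and 46 at least 2-fold lower in the null library.

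**Figure D5:**
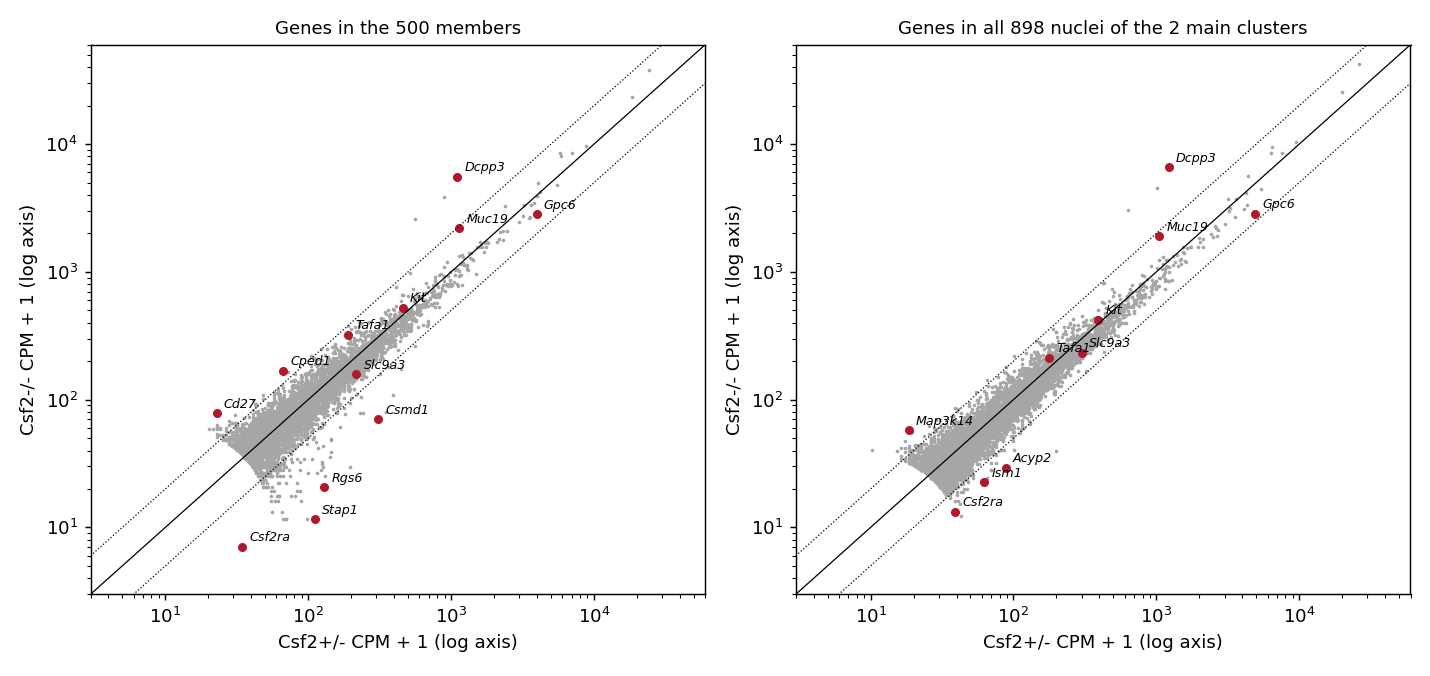
CPM plus 1 in the null against the control library on log axes, 1 point a gene, for members and for all nuclei of both main clusters, with a solid line of equal levels and dotted lines at 2-fold. Dcpp3 lies above the upper dotted line in both panels.

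In all nuclei of both main clusters, 368 control and 530 null, the 12 lowest genes were, apart from 5_8S_rRNA, other genes than in members. Acyp2, which encodes an acylphosphatase, had 85 and 30 UMIs, a log2 ratio of -1.62 (-2.28 to -1.01), in 60 and 25 nuclei. It was lower in both clusters, with -1.79 in the Slc9a3 and -1.40 in the Tafa1 cluster, but stood at 71.2 and 74.7 CPM in fibroblast-like nuclei. Spred1, an inhibitor of RAS-MAPK signalling, had 98 and 42 UMIs (-1.34) and Ism1, a secreted protein, 60 and 23 (-1.51), all of the latter in the Slc9a3 cluster. Stxbp5l had 41 and 12 UMIs (-1.89). Gpc6, a gene of the rule, had 4766 and 3020 UMIs, a log2 ratio of -0.78 (-0.85 to -0.71), with -0.65 in the Slc9a3 and -1.15 in the Tafa1 cluster. In the barcodes under 1000 UMIs Gpc6 was lower in the null library as well, at a log2 ratio of -1.19, and the part of that RNA in the difference was not tested.

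On the higher side, after the Dcpp genes, came Mthfs, which encodes a folate cycle enzyme, with 9 and 42 UMIs and a log2 ratio of 2.10 (1.04 to 3.33), in 7 and 36 nuclei. Map3k14, the kinase NIK of the non-canonical NF-kappaB pathway, had 17 and 60 UMIs (1.70, 0.90 to 2.57), in 16 and 51 nuclei. Its level was 15.9 and 48.3 CPM in the Slc9a3 cluster, 23.0 and 76.5 CPM in the Tafa1 cluster and 9.39 and 9.78 CPM in the barcodes under 1000 UMIs, so both clusters had it higher in the null library. Tfap2c, named after its values had been seen, had 29 and 73 UMIs (1.21, 0.57 to 1.88), at 29.1 and 63.0 CPM in the Slc9a3 and 32.2 and 82.8 CPM in the Tafa1 cluster. Nupr1, a stress-responsive gene, had 182 and 375 UMIs (0.92) and the interferon-responsive gene Ifi27l2a 63 and 149 (1.12). These differences rest on 1 library a genotype.

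The receptor for the missing cytokine was barely detected in intercalated duct nuclei. Csf2ra had 26 UMIs in 21 control members and 4 UMIs in 4 null members, a log2 ratio of -2.46 (-4.44 to -0.94). In all nuclei of both main clusters it had 37 and 13 UMIs (-1.63, -2.67 to -0.69). It was detected in 5.0% of members, 2.62% of fibroblast-like nuclei and 17.0% of macrophage-like nuclei. In luminal duct-like, mucous acinar-like and ionocyte-like nuclei detection was 5.73%, 6.65% and 3.23%, so a low level was not particular to members. Over all barcodes of the files Csf2ra had 1403 control and 832 null UMIs, and in the barcodes under 1000 UMIs it was at 15.2 and 8.46 CPM. Csf2rb, the signalling subunit, had 1 UMI in members of each library and stood at 28.5 and 41.4 CPM in macrophage-like nuclei. Of 4 measured genes in the list of GM-CSF and its receptor none was 2-fold different between genotypes in members. In all nuclei of both main clusters 5 genes of the list were measured, of which 1, Csf2ra, was at least 2-fold lower and 4 had ratios below 0, with a median of -0.24.

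Genes high in members had smaller ratios between genotypes. In all nuclei of both main clusters the log2 ratio was 0.11 (-0.10 to 0.31) for Kit, 0.27 (-0.03 to 0.56) for Tafa1, -0.38 (-0.63 to -0.13) for Slc9a3 and -0.36 (-0.47 to -0.26) for Glis3. Il34 had 150 and 77 UMIs in members (-0.73, -1.14 to -0.32) and 239 and 187 in all nuclei of both clusters (-0.48, -0.76 to -0.19), but with members thinned to 1000 UMIs the ratio in members was -0.27. Dclk1 had 865 and 516 UMIs in members (-0.51), and in the barcodes under 1000 UMIs it stood at 43.4 and 16.4 CPM. Sox9 was higher in null members, with 120 and 177 UMIs (0.80, 0.45 to 1.14), and also in null fibroblast-like nuclei, at 41.2 and 67.3 CPM. Of the 16 WNT genes measured 0 were 2-fold different between genotypes, with a median of -0.20, and of the 14 genes of glypicans and heparan sulfate 0 were, with a median of -0.19. The lists of Notch (0 of 8, median 0.20), BMP and TGF-beta (0 of 17, median -0.14) and ligands for macrophages and innate lymphoid cells (0 of 9, median -0.35) likewise had no gene past 2-fold, where 0.92% of all genes were higher and 2.38% lower and the median was -0.07. Other lists had genes at least 2-fold lower in null members. These were Magi2 and Dlg2 of the 21 tight junction genes, Fgfr1 and Fgf10 of the 11 FGF and ERBB genes, Col4a1 of the 16 laminins, integrins and basement membrane genes, Trp63 of the 31 transcription factor genes, Gria3 of the 5 GRIP1 partners and Adra1a of the 6 autonomic and peptide receptors. In members within the main clusters their UMIs were few, from 3 and 2 for Trp63 to 27 and 7 for Fgf10.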

How the data were processed

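The deposited files hold UMI counts per gene and barcode, and the submitters' processing notes name Cell Ranger 7.0.0 and the build GRCm39. Whether intronic reads were counted, and the annotation, are not given in the sources used here. The 26033 genes were used by the symbols in the files, of which 290 were repeated. The members and gene lists were chosen with earlier results of these data known.

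Eligible barcodes of both libraries were clustered together without batch correction (Scanpy 1.11.5, igraph 0.11.9, leidenalg 0.10.2, scikit-learn 1.9.0; 2000 variable genes, 30 components, 20 neighbours, Leiden resolution 1). A cluster was called by a type, as in ionocyte-like, where at least 3 listed markers had 10 or more UMIs and exceeded the other eligible barcodes 2-fold. UMIs were summed over the nuclei of a group in each library, scaled to CPM and compared as log2 ratios. Intervals of ratios are exact conditional binomial and those of shares exact Clopper-Pearson, at 95%, for counting error only. Members held 778318 control and 660741 null UMIs. Between genotypes there is no replicate check and no p-value. The log2 ratio, its interval and the 2-fold limit were tested on simulated counts, and the marker rule on a small made-up matrix. The simulated counts held no spread between nuclei, and the other steps were not tested in this way. Free RNA means the profile of barcodes under 1000 UMIs. Sums and intervals used SciPy 1.17.1 and pandas 2.3.3 with NumPy 2.4.6 under Python 3.11.15, and Matplotlib 3.10.9 drew the figures.

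Named genes are those of the rule, Csf2 and its receptor genes, the 20 highest and 10 lowest in members over other eligible barcodes (at least 100 member UMIs, or 100 expected), the 8 highest and lowest over each of 3 epithelial classes, the 12 highest and lowest between genotypes by the bound of the interval nearest to no difference (at least 50 UMIs), and of each list the 6 with the most UMIs and those past 2-fold, of which a part is printed. The choice of 12 was repeated for all nuclei of the main clusters, and 15 a side were taken between those clusters, after the data had been seen. Mitochondrial, ribosomal, sex-linked and predicted genes were left out, and 5_8S_rRNA, a repeated symbol, is not printed with values.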

Additional observations from a re-analysis of the deposited data

How the results depend on the processing

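No paired analysis was possible because each genotype has 1 library. The share of members had a log2 ratio of -0.48, and 13 of 18 alternatives moved it by less than its counting interval. Among these 13, it was -0.26 (-0.55 to 0.03) with saliva genes under 20% and -0.28 (-0.56 to 0.01) for members in the 2 main clusters. Both of these intervals took in no difference. The ratio changed sign to 0.16 with saliva genes under 35% and to 0.043 over all barcodes. It was -0.074 with barcodes thinned to 1000 UMIs. Over the barcodes of clusters with at least 3 markers of an epithelial list it was -1.04. In an alternative chosen after seeing the data, it was -0.12 for all nuclei of the 2 main clusters. Of 5218 genes, 48 were at least 2-fold higher and 124 at least 2-fold lower in null members. These counts were 25 and 41 of 2293 genes with at least 4 of 7 markers. They were 20 and 46 of 3972 for members in the main clusters, and 23 and 34 of 2074 with members thinned to 1000 UMIs. At a minimum of 20 UMIs they were 200 and 376 of 8273, and at a minimum of 200 they were 6 and 11 of 1432. The higher count alone was 79 of 6906 without the stromal exclusion, 30 of 3668 without Kit among the markers and 89 of 4037 with free RNA subtracted. In alternatives chosen after seeing the data, the counts were 20 and 46 of 3972 for members of the leading cluster at resolution 0.5. They were 22 and 45 of 3958 for those of the 2 leading clusters at resolution 2.0. The lower count, in another such alternative, was 41 of 6199 for all nuclei of the main clusters. Genes at least 4-fold higher (61) and lower (40) than in other eligible barcodes numbered 34 and 9 at a minimum of 200 UMIs, 40 and 21 with at least 4 markers, and, chosen after seeing the data, 97 and 185 for all nuclei of the main clusters. The lower count was 22 against other epithelial clusters and 81 with free RNA subtracted. Causes were not tested. Centring on the median shifted all ratios by 0.07, and subtraction of free RNA left 65.7% of control and 63.8% of null member UMIs. The counts of genes past 2-fold changed with the minimum of UMIs, which also changed how many genes were measured. With 1 library a genotype no difference can be separated from the preparation.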
